A study of Mus musculus with 31 samples.

Results

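Long intergenic noncoding RNAs (lincRNAs) were followed in alveolar macrophages (AM) of mice with and without RAGE, the cell surface receptor for advanced glycation end products, exposed to cigarette smoke (CS) or to room air. Members were the genes whose annotated class in the deposited gene table is lincRNA, which holds for 211 of 13521 listed genes. The gene 2610507I01Rik was left out, so 210 lincRNAs are described. WT mice were C57BL6 mice with no engineered allele. RAGE null mice were C57BL6 mice homozygous for a null mutation of Ager, the gene that encodes RAGE, in the whole animal and not in AM alone. All mice were male and 8 to 12 weeks of age when exposure began. AM of control and CS-exposed mice were recovered by lavage after 7 days or 4 months, which gives 8 groups with 4 libraries each, except 3 for WT control mice at 7 days, and 31 libraries in all. Each genotype was kept as a colony, so genotype and colony cannot be told apart, and replicates are libraries that the labels number from 0.

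LincRNAs are transcripts longer than most regulatory RNAs that lie between protein coding genes and are not known to be translated. Some stay in the nucleus and organize chromatin or splicing, some carry small nucleolar RNAs (snoRNAs) or microRNAs in their introns, and many run from the same start region as a neighboring gene in the opposite direction. In macrophages, lincRNAs are known to tune inflammatory gene programs, and the level of most is low. AM are the resident phagocytes of the air spaces and the first immune cells that inhaled smoke meets.

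Total counts per library were 11.667 to 19.975 M at 7 days and 12.77 to 34.492 M at 4 months, and lincRNAs took 0.2198 to 0.3121% of them. Ager was counted in all 31 libraries, at 4.38 to 7.74 counts scaled to library size (CPM) in WT and 4.02 to 5.70 CPM in RAGE null mice at 7 days, and at 0.644 to 2.44 CPM in WT and 2.63 to 4.03 CPM in RAGE null mice at 4 months. Counts per gene do not show which part of Ager was read, so Ager is no check of the genotype labels, and RAGE null refers to libraries labelled so. The 9 of 12 AM markers that are listed summed to 5976 to 9373 CPM. Of the 9 listed T and NK cell markers, Cd2 was at 233.7 to 357.8 CPM, while the T cell receptor chain Cd3e was at 0.0 to 1.53 CPM. Sums over markers of other cells differed between some groups without overlap, but some rest on 1 gene that other cells also make. Cd24a made up 59.75 to 222.2 CPM of the dendritic cell sum, in which Xcr1, Flt3, Zbtb46 and Cd209a had medians of 0.3472 to 1.935 CPM. Csf1r, which AM express, made up 314.9 to 551.0 CPM of the monocyte sum, in which Ly6c2 had a median of 0.05044 CPM. Csf3r made up 13.05 to 80.59 CPM of the neutrophil sum, in which S100a9 had a median of 0.2084 CPM. Cav1 made up 54.19 to 128.1 CPM of the type 1 alveolar cell sum, in which Aqp5 had a median of 1.988 CPM. Abca3 made up 95.2 to 183.2 CPM of the type 2 sum, in which Sftpc had a median of 28.51 CPM and reached 190.3 CPM. Other sums hold secretory or blood genes at a high level in some libraries. The 8 listed airway cell markers summed to 27.15 to 1141 CPM, with Bpifa1 at 8.825 to 524.3 CPM and Scgb1a1 at 5.813 to 224.6 CPM. The 4 listed red cell markers summed to 0.05236 to 226.7 CPM. The 7 dendritic cell markers summed to 108 to 143 CPM in CS-exposed and 156 to 272 CPM in control WT mice at 4 months, and the same direction was seen in both genotypes at 7 days. The part of these markers in the lincRNA results was not tested, and in bulk RNA fewer cells of a type and less RNA per cell cannot be told apart.

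Most lincRNAs of the table share ground with another gene. Of the 210, 145 overlap a listed gene, 135 of them only on the opposite strand and 10 on the same strand. A further 34 lie within 5 kb of a listed gene, and 31 have none that near. The start of 87 lies within 1000 bases of the start of a protein coding gene on the other strand. GENCODE M21 calls 91 of them processed transcripts, 54 antisense, 46 lincRNA and 9 protein coding. Among those reclassified as protein coding are 1500011K16Rik, now Mtln, and Nlrc5. The libraries are not stated to keep strand, so reads of a lincRNA and of an overlapping gene cannot be told apart where exons coincide, as they do for 155 lincRNAs in M21.

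LincRNAs that overlap a gene followed it more closely than others followed their nearest gene. Across the 16 libraries at 4 months, 132 pairs of a lincRNA and an overlapping protein coding gene, both with a mean of at least 1 CPM, had a median Pearson r of 0.65 on the log2(CPM + 1) scale, and 39 pairs reached 0.8. The 40 lincRNAs with no overlapping gene had a median r of 0.31 with the nearest protein coding gene, and 2 reached 0.8. At 7 days, over 15 libraries, the medians were 0.46 for 131 overlapping pairs and 0.09 for 49 nearest genes. These are descriptions, since points share libraries and depth, and shared reads, shared start regions and differences in level were not separated. Overlapping genes are given beside the lincRNAs described.

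LincRNAs were low in AM. The mean over 31 libraries, in the authors' length-scaled unit FPKM, had a median of 1.83 for lincRNAs, 3.33 for 308 antisense genes and 7.82 for 12112 protein coding genes. It was under 1 FPKM for 74 lincRNAs and at least 10 FPKM for 26. The highest was Gm15441, at 140.1 FPKM (range 75.11 to 252.7), which runs opposite to Txnip, a gene of redox and glucose control. Malat1, a nuclear RNA of splicing bodies, followed at 94.63 FPKM (45.67 to 165.6) and made up 25.7% of all lincRNA counts. Next came 2410006H16Rik at 66.07 FPKM and AI662270 at 58.13 FPKM, which overlap no listed gene. The remaining 6 of the top 10 were Gm13610, BC029722, Gm16933, 1810058I24Rik, 1700020I14Rik and A730081D07Rik, at 25.06 to 18.62 FPKM. Gm13610 overlaps Prrc2b, BC029722 overlaps Mmp24, Gm16933 overlaps Htra4 and Plekha2, and A730081D07Rik overlaps Gcnt2 and Pak1ip1. No listed gene overlaps 1810058I24Rik or 1700020I14Rik.

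**Figure D1:**
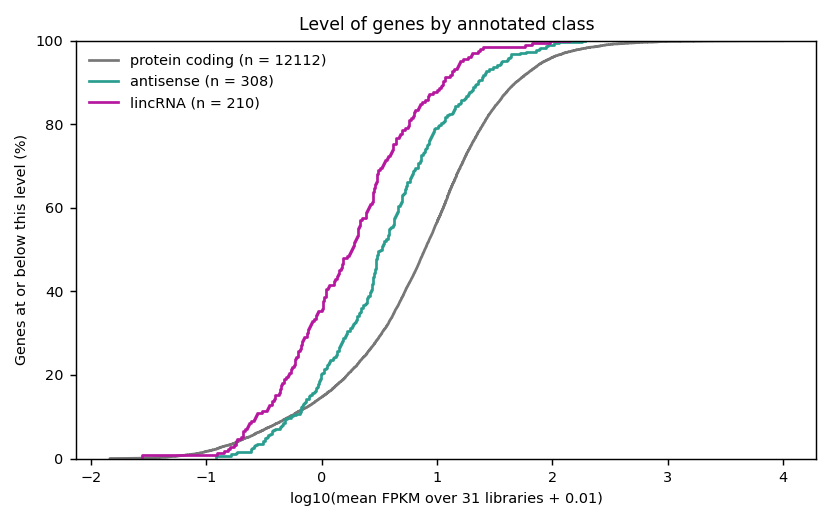
Cumulative share of genes (percent, vertical axis) at or below a mean level over 31 libraries (log10 of FPKM + 0.01, horizontal axis) for lincRNAs, antisense genes and protein coding genes. The lincRNA curve lies to the left, with a median of 1.83 FPKM against 7.82 FPKM for protein coding genes.

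Calls for smoke or genotype covered 0.995 to 7.39% of the lincRNAs tested in a comparison, beside 0.439 to 7.27% of all genes tested. A gene was called when its edgeR adjusted p was under 0.05 over all genes tested and its fold change at least 1.5. Of the 210, 201 could be tested at 7 days and 203 at 4 months. At least 1 of 8 comparisons called 45 lincRNAs (21.4% of 210), beside 18.1% of all genes tested. They comprised 29 of the 145 lincRNAs that overlap a gene and 16 of the 65 that do not. Of the 70 calls, 20 were made at 7 days and 50 at 4 months. Calls of all genes were also fewer at 7 days, at 299, 58, 632 and 291 in its comparisons, against 739, 949, 909 and 644 at 4 months. Among the 45, 27 were called in 1 comparison, 13 in 2 and 5 in 3 or 4 (3.77% of all genes were called in at least 3). The groups compared did not overlap for 58 of the 70 calls. Without regard to calls, groups did not overlap for 20.9, 7.22, 19.7 and 12.4% of all genes at 7 days and 23.0, 16.6, 20.1 and 19.4% at 4 months, in the order of CS in WT, CS in RAGE null, genotype in control and genotype in CS-exposed mice. For the lincRNAs tested these shares were 20.9, 5.47, 14.9 and 8.96%, then 14.3, 11.3, 14.3 and 17.7%, lower than for all genes in 7 of the 8 comparisons. An unadjusted p under 0.05 was also less frequent among lincRNAs in each of the 8, at 23.9, 9.45, 25.9 and 9.95% against 24.9, 15.8, 27.4 and 18.8% of all genes at 7 days. At 4 months it was 18.7, 25.6, 25.6 and 22.2% against 28.4, 33.8, 36.2 and 25.5%. When each library was left out in turn, 20 calls of 13 lincRNAs held every time and 50 were lost at least once.

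**Figure D2:**
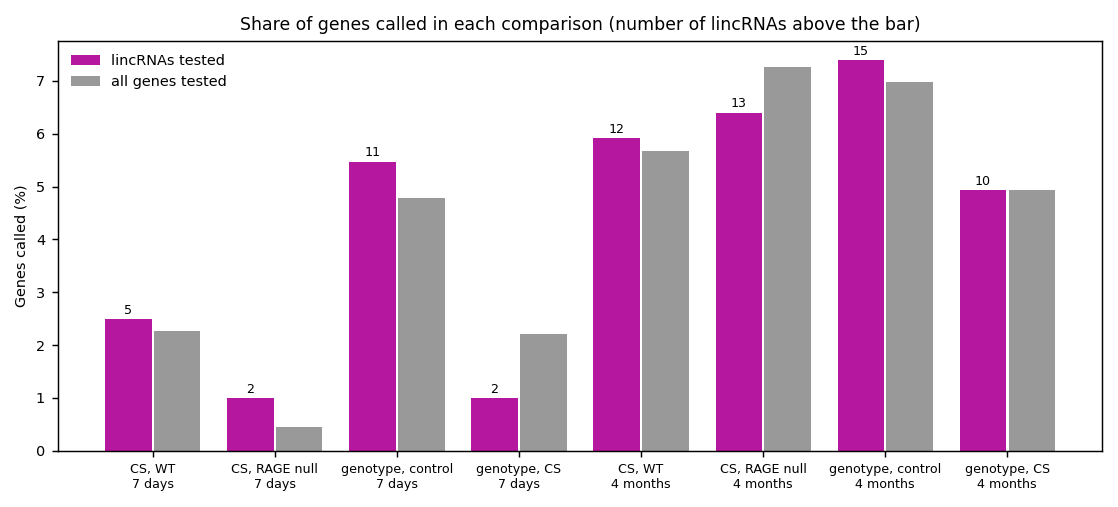
Percent of lincRNAs tested (magenta) and of all genes tested (grey) that were called in each of 8 comparisons, with the number of lincRNAs above each bar. The share of lincRNAs lay between 0.995 and 7.39%, was above that of all genes in 5 comparisons and below it in 3, and was farthest from it by ratio at 7 days, at 0.995% against 0.439% for CS in RAGE null mice and 0.995% against 2.20% for genotype in CS-exposed mice.

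Promoter windows, from 250 bases before to 50 bases after the annotated start, were available in RefSeq (GRCm38.p6) for 128 lincRNAs. Of these, 27 were called in at least 1 of the 8 comparisons or for a difference between 4 months and 7 days, as Firre was. All windows were searched on both strands for motifs of factors that act in stress and immune responses. The E-box CACGTG was present in 14.8% of the called, 9.38% of all matched lincRNAs and 7.15% of 32851 promoters of the table. The AP-1 motif TGACTCA was present in 7.41%, 3.12% and 5.2% of the same sets. The antioxidant response element core TGACNNNGC was present in 14.8%, 14.1% and 12.4%. The heat shock motif GAANNTTC and the STAT motif TTCCNGGAA were in none of the 27, and in 7.86% and 1.15% of all promoters. A match of letters is not a binding site, and some windows lie on a gene that starts on the other strand. Windows of 4 lincRNAs are shown as examples, chosen after the matches were seen, with motif matches in capitals. Among other lincRNAs described, the windows of Malat1, AU019990, Spata5l1 and B230206H07Rik held no motif, that of Firre an E-box and that of Gm14321 an antioxidant response element. R74862 rose after CS in every comparison and its window (chr7:143053637-143053936, minus strand) held none of the motifs. The window of E230016M11Rik (chr6:67036349-67036648, plus strand) held an AP-1 motif, that of Gm11974 (chr11:6528711-6529010, minus strand) an E-box and that of 1700001L05Rik (chr15:83367248-83367547, minus strand) 2 E-boxes.
R74862: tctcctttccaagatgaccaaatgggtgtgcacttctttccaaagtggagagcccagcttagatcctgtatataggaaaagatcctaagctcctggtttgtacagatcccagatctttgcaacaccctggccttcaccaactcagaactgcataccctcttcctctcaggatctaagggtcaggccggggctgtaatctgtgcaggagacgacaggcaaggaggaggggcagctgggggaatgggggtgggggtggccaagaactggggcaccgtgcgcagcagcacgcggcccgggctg
E230016M11Rik: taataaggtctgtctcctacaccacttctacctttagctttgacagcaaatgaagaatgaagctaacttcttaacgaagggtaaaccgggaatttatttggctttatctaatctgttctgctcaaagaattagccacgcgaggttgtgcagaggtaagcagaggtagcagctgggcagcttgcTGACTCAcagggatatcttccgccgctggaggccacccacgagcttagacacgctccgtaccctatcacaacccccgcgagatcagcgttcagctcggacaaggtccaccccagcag
Gm11974: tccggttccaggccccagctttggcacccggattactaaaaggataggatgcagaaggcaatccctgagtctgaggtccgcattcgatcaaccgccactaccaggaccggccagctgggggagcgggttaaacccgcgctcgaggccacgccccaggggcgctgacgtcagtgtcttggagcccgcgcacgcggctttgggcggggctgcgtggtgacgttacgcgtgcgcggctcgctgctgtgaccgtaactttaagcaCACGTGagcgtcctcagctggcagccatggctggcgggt
1700001L05Rik: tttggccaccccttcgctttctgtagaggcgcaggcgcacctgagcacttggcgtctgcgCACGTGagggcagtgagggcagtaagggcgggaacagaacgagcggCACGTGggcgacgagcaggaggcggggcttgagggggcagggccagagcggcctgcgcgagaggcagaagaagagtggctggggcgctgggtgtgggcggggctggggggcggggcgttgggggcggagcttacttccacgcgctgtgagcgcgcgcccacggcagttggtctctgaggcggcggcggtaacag

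To see how CS affects lincRNAs, exposed mice were compared with controls within each genotype. After 7 days, CS raised 2 and lowered 3 lincRNAs in WT mice (2.49% of those tested, with 2.26% of all genes called, 0.983% higher and 1.28% lower). In RAGE null mice it raised 2 and lowered none (0.995%, with 0.439% of all genes called, 0.182% higher and 0.257% lower). After 4 months it raised 7 and lowered 5 in WT mice (5.91%, with 5.67% of all genes called, 2.34% higher and 3.33% lower) and raised 6 and lowered 7 in RAGE null mice (6.4%, with 7.27% of all genes called, 2.84% higher and 4.43% lower). The median log2 fold change of the lincRNAs tested was -0.13 and 0.12 at 7 days and 0.06 and 0.03 at 4 months in WT and RAGE null mice, and that of all genes lay between -0.01 and 0.0.

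R74862 was the only lincRNA that CS raised in both genotypes at both times, which holds for 10 of all genes tested (0.0748%). Its gene (ENSMUSG00000059277) lies on chromosome 7 of mm10 from 143021784 to 143053686 on the minus strand. It overlaps Cd81, a tetraspanin of the cell surface that runs the other way, and their starts lie 948 bases apart. At 7 days R74862 was counted at 7.46, 6.83 and 8.6 CPM in control and 12.2, 12.4, 14 and 15.3 CPM in CS-exposed WT mice. RAGE null libraries held 5.43, 6.02, 6.93 and 8.52 CPM in control and 10.3, 10.4, 11.7 and 13 CPM in CS-exposed mice. Every CS-exposed library was above every control of its genotype. At 4 months the values were 9.31, 10.8, 9.11 and 7.45 CPM in control and 15.9, 17, 18.5 and 14.9 CPM in CS-exposed WT mice. RAGE null libraries held 7.57, 8.85, 8.88 and 7.69 CPM and 16.0, 12.1, 15.9 and 12.9 CPM. The groups again did not overlap. CS raised it by a log2 fold change of 0.83 ± 0.15 (SE, edgeR adjusted p = 0.00757) in WT and 0.75 ± 0.14 (edgeR adjusted p = 0.022) in RAGE null mice at 7 days. The 4-month values were 0.85 ± 0.12 (edgeR adjusted p = 0.000262) and 0.78 ± 0.12 (edgeR adjusted p = 0.000625).

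The 4-month calls of R74862 held with any library left out. At 7 days the call was lost in WT mice without control replicate 1 (edgeR adjusted p = 0.0579). The RAGE null call was lost without control replicates 0, 1 or 2 (0.057, 0.0545 and 0.0588) or without CS replicates 2 or 3 (0.0887 and 0.0797), while the log2 fold change stayed between 0.66 and 0.88. Cd81 rose alongside, by a log2 fold change of 0.83 ± 0.12, 0.64 ± 0.11, 0.81 ± 0.09 and 0.86 ± 0.09 in the same order of comparisons. R74862 had 4.4 to 6.48% of the counts of Cd81 in each of the 31 libraries, and r between them was 0.98 at 7 days and 0.96 at 4 months. In M21 the exons of R74862 share 104 of 3889 bases with another gene. Tspan32, a tetraspanin of blood cells within 5 kb, had log2 fold changes of 0.66, 0.92, 0.85 and 0.54, the last with an edgeR adjusted p of 0.115.

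Gm15441 and Gm15396 fell after 4 months of CS. Gm15441 (ENSMUSG00000074398, chromosome 3, 96555765 to 96566801, minus strand) lies opposite Txnip, whose protein binds thioredoxin and restrains glucose uptake. At 4 months it was counted at 311, 416, 304 and 363 CPM in control and 212, 211, 154 and 198 CPM in CS-exposed WT mice. RAGE null libraries held 404, 334, 296 and 358 CPM in control and 245, 208, 170 and 196 CPM in CS-exposed mice. All exposed libraries were below all controls. CS lowered it by a log2 fold change of -0.85 ± 0.13 (edgeR adjusted p = 0.000565) in WT and -0.77 ± 0.13 (edgeR adjusted p = 0.00125) in RAGE null mice, and both calls held with any library left out. At 7 days it was at 215, 215 and 209 CPM in control and 181, 157, 140 and 130 CPM in CS-exposed WT mice. That difference of -0.49 was under the fold threshold (edgeR adjusted p = 0.0378), and in RAGE null mice the value was -0.22 (edgeR adjusted p = 0.406). Txnip changed by -0.53, -0.35, -0.86 and -0.83 in WT and RAGE null mice at 7 days and then at 4 months. The 2 genes share 606 of 1676 exon bases of Gm15441, which had 14.3 to 25.5% of the counts of Txnip.

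Gm15396 (ENSMUSG00000087560, chromosome 7, 44579968 to 44590624, minus strand) lies opposite Napsa, an aspartic protease made by type 2 alveolar cells that processes surfactant protein. At 4 months it was counted at 18.4, 22.1, 17.3 and 16.3 CPM in control and 9.98, 10.4, 12.3 and 10.4 CPM in CS-exposed WT mice, with no overlap. The log2 fold change of -0.79 ± 0.10 (edgeR adjusted p = 0.000143) held with any library left out. RAGE null libraries of 4 months held 18.9, 19.5, 16.9 and 15.8 CPM in control and 12.9, 13.7, 12.4 and 12.3 CPM in CS-exposed mice. The groups did not overlap, and the log2 fold change of -0.47 was under the fold threshold (edgeR adjusted p = 0.00493). At 7 days the values were 0.06 (edgeR adjusted p = 0.746) in WT and -0.11 (edgeR adjusted p = 0.591) in RAGE null mice. Napsa had -0.67 ± 0.09 in WT and -0.46 in RAGE null mice at 4 months. The 9 type 2 cell markers summed to 210 to 223 CPM in CS-exposed and 233 to 261 CPM in control WT mice at 4 months. Napsa is itself in that sum, at 38.07 to 83.94 CPM over the 31 libraries, so the sum is not separate from the fall of Napsa. The part of these markers in the result was not tested.

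AU019990 (ENSMUSG00000074783, chromosome 2, 132598195 to 132653068, plus strand) overlaps no listed gene and rose after 4 months of CS in both genotypes. It is low, and it was singled out after its values were seen. In WT mice it was at 0.458, 0.228, 0.333 and 0.305 CPM in control and 1.13, 1.31, 0.83 and 0.837 CPM in CS-exposed mice, with no overlap. The rise of 1.72 ± 0.39 on the log2 scale (edgeR adjusted p = 0.00765) held with any library left out. RAGE null libraries held 0.441, 0.219, 0.248 and 0.166 CPM in control and 0.269, 0.576, 1.23 and 0.985 CPM in CS-exposed mice, and the groups overlapped. The log2 fold change of 1.53 ± 0.43 (edgeR adjusted p = 0.0216) was lost without control replicate 3 (0.073) or CS replicates 2 or 3 (0.0848 and 0.0628). Gpcpd1, the nearest protein coding gene at 10465 bases, had log2 fold changes of 0.04 and 0.34.

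**Figure D3:**
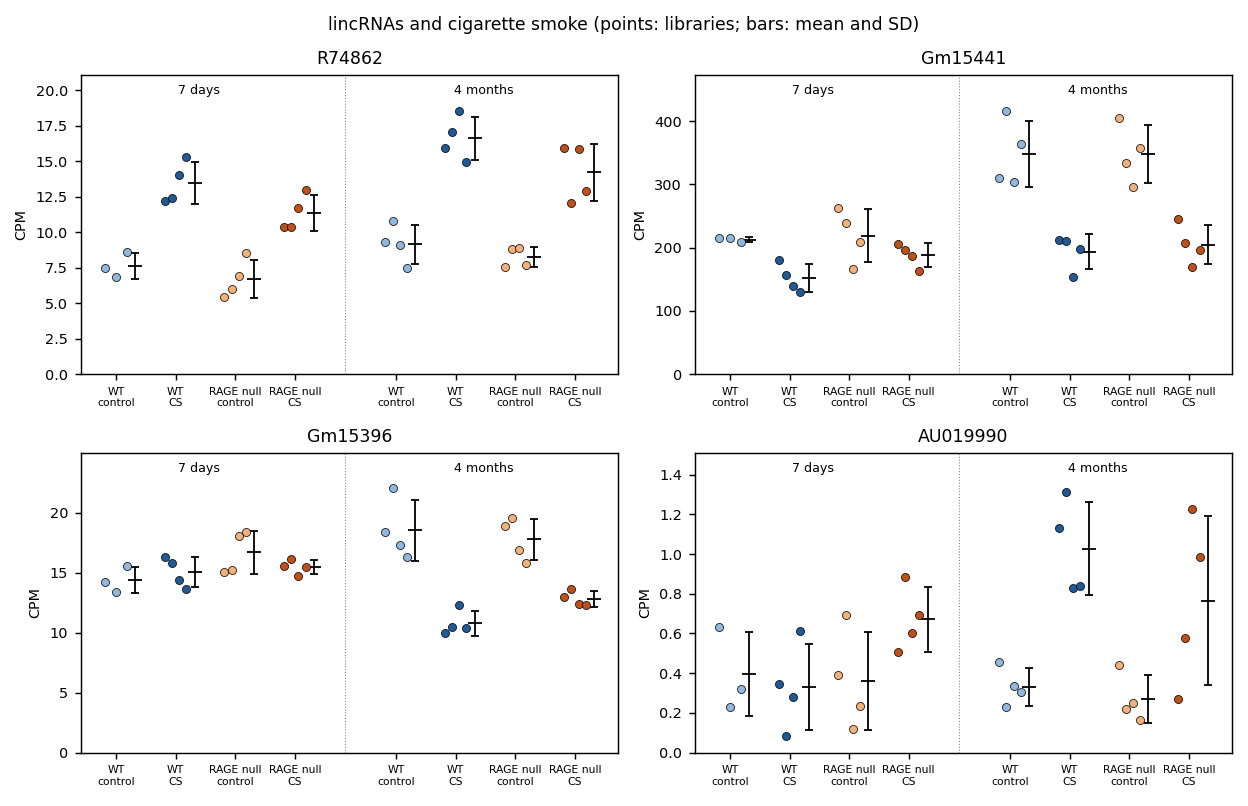
CPM (vertical axis, linear, from 0) of 4 lincRNAs in each library of the 8 groups, with 7 days to the left and 4 months to the right of the dotted line. Points are libraries, and bars give the mean and SD. R74862 rose from 7.45 to 10.8 CPM in WT controls to 14.9 to 18.5 CPM after CS at 4 months, and Gm15441 and Gm15396 fell there.

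Other lincRNAs with a mean of at least 1 CPM were called for CS in 1 genotype. Below that level, Gm15628, which overlaps Lcp1, and Gm15651, which overlaps Dgkg, were called in both genotypes at 4 months. In WT and RAGE null mice Gm15628 had log2 fold changes of 1.25 and 1.15 (edgeR adjusted p = 0.0315 and 0.0411). Gm15651 had -1.09 and -1.12 (edgeR adjusted p = 0.0269 and 0.0414). Each of these calls was lost in at least 5 of 16 fits that left out a library. In WT mice at 4 months, 2810008D09Rik, now Snhg20 and a host of a small Cajal body RNA, rose from 5.498 ± 1.06 to 8.504 ± 0.984 CPM (SD, n = 4), by a log2 fold change of 0.63 ± 0.16 (edgeR adjusted p = 0.0142). This call was lost without control replicate 2 (0.50) or CS replicate 0 (edgeR adjusted p = 0.0514). Gm12349 fell from 6.551 ± 1.244 to 3.145 ± 0.919 CPM, by -1.05 ± 0.28 (edgeR adjusted p = 0.02). Its adjusted p rose as far as 0.0715 without control replicates 0 or 3 or CS replicates 0, 1 or 2. Atp10d, a lipid flippase gene that M21 lists as a polymorphic pseudogene, fell from 14.61 ± 1.506 to 9.621 ± 1.294 CPM. Its log2 fold change of -0.60 ± 0.12 (edgeR adjusted p = 0.00408) was under 1.5-fold without control replicates 0, 2 or 3 or CS replicates 1 or 2 (-0.58 to -0.52). BC037032, opposite the ketone body enzyme gene Oxct1, had 0.64 ± 0.20 (edgeR adjusted p = 0.0439) and was lost in 9 of 16 fits that left out a library. These 4 were not called in RAGE null mice at 4 months, where control and CS-exposed means were 6.57 and 8.472 CPM for Snhg20, 5.727 and 4.503 CPM for Gm12349, 19.61 and 13.82 CPM for Atp10d, and 4.081 and 5.785 CPM for BC037032, the same order as in WT mice.

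In RAGE null mice at 4 months, Gm11974, now Snhg15 and a snoRNA host, was at 4.70, 5.70, 7.04 and 5.81 CPM in control and 4.18, 3.88, 3.21 and 3.35 CPM in CS-exposed mice. The groups did not overlap, and the log2 fold change was -0.68 ± 0.15 (edgeR adjusted p = 0.00446), or -0.57 without control replicate 2. Spata5l1, which overlaps no listed gene, was at 10.2, 8.99, 9.28 and 10.02 CPM in control and 7.61, 6.44, 6.01 and 5.12 CPM in CS-exposed mice. Its log2 fold change of -0.61 ± 0.14 (edgeR adjusted p = 0.00586) was under 1.5-fold without control replicate 0 or CS replicates 2 or 3 (-0.58, -0.58 and -0.52). Gm12043, opposite Ugp2, and 2610027K06Rik, opposite Bcas3, had 0.62 ± 0.21 and 0.69 ± 0.24 (edgeR adjusted p = 0.0442 and 0.05), and were lost in 8 and 12 of 16 such fits. Beside these changes, the 8 listed airway cell markers summed to 27.1 to 108 CPM in CS-exposed and 114 to 231 CPM in control RAGE null mice, and the 10 monocyte markers to 408 to 523 and 523 to 663 CPM. Their part in the result was not tested. WT control and CS-exposed means were 5.234 and 5.263 CPM for Gm11974 and 7.193 and 7.005 CPM for Spata5l1. Of the calls at 4 months, 4 in WT and 5 in RAGE null mice were of lincRNAs below a mean of 1 CPM, AU019990 among them.

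At 7 days, Gm14321 (chromosome 2, 167777467 to 167782569, plus strand), which overlaps the lincRNA 9230111E07Rik on the same strand, was lower after CS in WT mice. It was at 4.68, 4.59 and 2.50 CPM in control and 2.06, 2.01, 1.67 and 1.37 CPM in CS-exposed mice, with no overlap. Its log2 fold change was -1.15 ± 0.26 (edgeR adjusted p = 0.0209), and it was lost without control replicates 0 or 1 (0.118 and 0.114) or CS replicates 2 or 3 (0.0507 and 0.0587). 0610005C13Rik, which overlaps the amino acid transaminase gene Bcat2, was at 2.40, 2.24 and 2.63 CPM in control and 4.21, 4.10, 3.89 and 3.97 CPM in CS-exposed WT mice. Its log2 fold change of 0.74 ± 0.19 (edgeR adjusted p = 0.0355) was lost without control replicates 0 or 1 or any CS replicate (0.0528 to 0.151). A630052C17Rik, opposite Smek2, had -0.60 ± 0.16 (edgeR adjusted p = 0.0374) and was lost in 6 of 15 such fits.

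Lists of lincRNAs with known roles hold few members of the lincRNA class of the gene table. Names listed under another class, as Snhg3 is, were not counted, so these counts do not show absence from AM. Of 22 named nuclear and chromatin lincRNAs 4 are in this class, and Malat1 was the 1 called. Malat1 (chromosome 19, 5795690 to 5802671, minus strand) was at 498, 350, 315 and 442 CPM in control and 574, 1165, 1092 and 819 CPM in CS-exposed RAGE null mice at 7 days. The groups did not overlap and the log2 fold change was 1.18 ± 0.27 (edgeR adjusted p = 0.0483). Gm20417, which it overlaps, had 1.18 as well (edgeR adjusted p = 0.065). The call was lost without control replicates 0 or 1 of WT mice, any control replicate of RAGE null mice, or their CS replicates 1, 2 or 3 (0.055 to 0.162). In WT mice at 7 days it was at 668, 848 and 451 CPM in control and 804, 836, 422 and 395 CPM in CS-exposed mice, with overlap. At 4 months in RAGE null mice the log2 fold change was 0.51, under the fold threshold (edgeR adjusted p = 0.021). Tug1, known to bind chromatin regulators, had its smallest p for genotype in control mice at 7 days, with a log2 fold change of 0.46 ± 0.11 (edgeR adjusted p = 0.0193), under the fold threshold.

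Of 20 snoRNA hosts 4 are in the lincRNA class, of which Snhg20 and Snhg15 were called as given and Snhg12 and Snhg17 were not. Of 17 microRNA hosts 2 are in this class and none was called. Mir17hg, host of a growth-promoting microRNA cluster, had its smallest p for genotype in control mice at 7 days, at 1.13 ± 0.37 (edgeR adjusted p = 0.0654). Mir142hg, host of a microRNA of blood cells, had its smallest p for CS in RAGE null mice at 4 months, at -0.54 ± 0.24 (edgeR adjusted p = 0.122). Of 18 lincRNAs of immune cells and macrophages 2 are in this class and of 12 of lipid handling and stress 1, and none was called.

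To see how the loss of RAGE bears on lincRNAs, WT were compared with RAGE null mice within each exposure. In control mice at 7 days 9 lincRNAs were higher and 2 lower in WT (5.47% of those tested, with 4.78% of all genes called, 1.77% higher and 3.01% lower). In CS-exposed mice at 7 days none was higher and 2 were lower in WT (0.995%, with 2.20% of all genes called, 0.749% higher and 1.45% lower). At 4 months 6 were higher and 9 lower in WT control mice (7.39%, with 6.97% of all genes called, 3.43% higher and 3.53% lower), and 5 higher and 5 lower in WT CS-exposed mice (4.93%, with 4.94% of all genes called, 2.97% higher and 1.96% lower). The median log2 fold change of the lincRNAs tested was 0.10 and -0.05 at 7 days and -0.09 and -0.06 at 4 months in control and CS-exposed mice. The fold changes that follow are WT over RAGE null, so negative values mark lincRNAs higher in RAGE null mice.

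A730081D07Rik was higher in RAGE null mice in all 4 comparisons, which holds for 34 of all genes tested in this direction (0.254%). The gene (ENSMUSG00000086693) lies on chromosome 13 from 40956414 to 41001151 on the minus strand and runs through Gcnt2, an enzyme that branches glycan chains. It also overlaps the ribosome assembly gene Pak1ip1, and their starts lie 129 bases apart. At 7 days it was at 26.9, 21.6 and 25.7 CPM in WT and 36.0, 37.4, 40.9 and 50.8 CPM in RAGE null control mice. After CS it was at 20.4, 20.3, 17.2 and 19.2 CPM in WT and 32.7, 30.2, 31.8 and 28.0 CPM in RAGE null mice. Neither pair of groups overlapped. Libraries of 4 months held 30.0, 36.1, 28.6 and 32.5 CPM in WT and 63.5, 57.3, 31.9 and 64.0 CPM in RAGE null control mice. RAGE null control replicate 2 fell within the WT range. After CS it was at 21.9, 21.7, 20.5 and 22.6 CPM in WT and 54.8, 36.2, 41.5 and 38.7 CPM in RAGE null mice, with no overlap.

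The log2 fold change of A730081D07Rik was -0.74 ± 0.11 (edgeR adjusted p = 0.000895) in control and -0.67 ± 0.11 (edgeR adjusted p = 0.00202) in CS-exposed mice at 7 days. The 4-month values were -0.76 ± 0.18 (edgeR adjusted p = 0.00911) and -0.98 ± 0.18 (edgeR adjusted p = 0.0028). All 4 calls held with any library left out. Gcnt2 had -0.72, -0.76, -0.86 and -0.99 in the same order, and r with A730081D07Rik was 0.99 at 7 days and 1.0 at 4 months. A730081D07Rik had 16.3 to 21.1% of the counts of Gcnt2, and 568 of its 1804 exon bases lie on another gene in M21. Pak1ip1 had 0.09, 0.02, 0.11 and 0.10, with edgeR adjusted p of 0.337 to 0.914. CS lowered A730081D07Rik by less than the fold threshold in WT mice at 4 months (-0.56, edgeR adjusted p = 0.0495), and the other 3 values were -0.36, -0.43 and -0.34.

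AI427809 was nearly absent from RAGE null AM at 4 months. Its gene (ENSMUSG00000086712, chromosome 4, 53262732 to 53270232, minus strand) lies 184 bases from a protein coding gene listed under the same symbol (ENSMUSG00000073854). In WT mice it had 14, 24, 17 and 17 counts in control and 12, 13, 10 and 11 in CS-exposed mice. RAGE null libraries had 5, 1, 2 and 1 counts in control and none in any of the 4 CS-exposed libraries. In control mice the log2 fold change was 2.65 ± 0.41 (edgeR adjusted p = 0.00191). In CS-exposed mice AI427809 was at least 15.2-fold higher in WT (edgeR adjusted p = 0.000226), with 3 counts over the RAGE null group taken as the limit that a count of 0 allows. Both calls held with any library left out. It was also at least 3.29-fold lower after CS in RAGE null mice (edgeR adjusted p = 0.0133), which was lost without control replicate 0 (0.0609). At 7 days it was too low to be tested, with 4, 1, 4 and 0 counts in WT control, WT CS, RAGE null control and RAGE null CS mice in all. The protein coding neighbor moved alike at 4 months, with 3.24 ± 0.50 (edgeR adjusted p = 0.000984) in control and 2.62 ± 0.61 (edgeR adjusted p = 0.0126) in CS-exposed mice.

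Gm10287 went the other way at 4 months. It has no listed gene within 5 kb (ENSMUSG00000070342, chromosome 3, 149221693 to 149225745, minus strand), and it was singled out after its values were seen, since its mean is below 1 CPM. In control mice it had 2, 1, 1 and 2 counts in WT and 9, 13, 11 and 8 in RAGE null mice. In CS-exposed mice it had 3, 1, 1 and 0 counts in WT and 12, 29, 13 and 20 in RAGE null mice. Neither pair overlapped in CPM. WT over RAGE null gave -2.98 ± 0.53 (edgeR adjusted p = 0.00252) in control and -3.77 ± 0.51 (edgeR adjusted p = 0.000239) in CS-exposed mice, and both held with any library left out. At 7 days it was at 0.577 to 0.948 CPM in WT and 0.761 to 1.05 CPM in RAGE null control mice, with overlap.

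**Figure D4:**
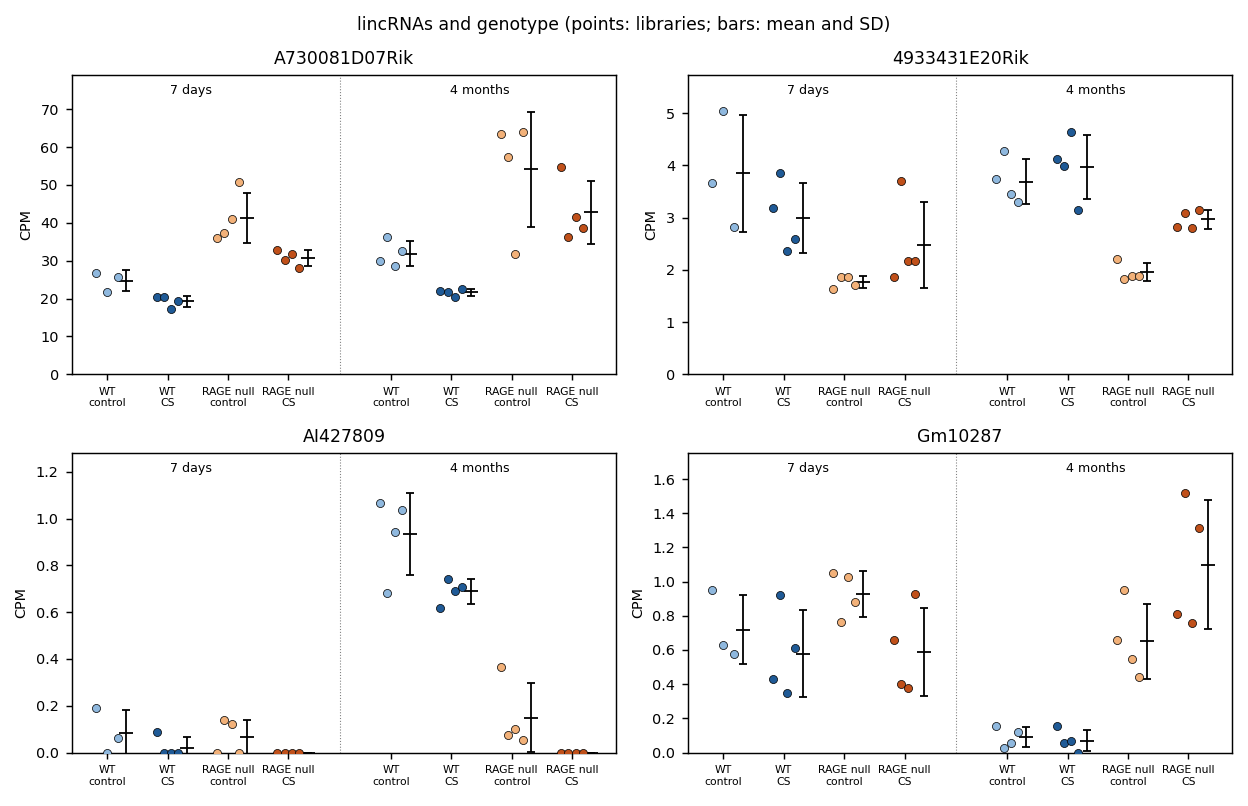
CPM (vertical axis, linear, from 0) of 4 lincRNAs in each library of the 8 groups, with 7 days to the left and 4 months to the right of the dotted line. Points are libraries, and bars give the mean and SD. A730081D07Rik is higher in RAGE null mice at both times, 4933431E20Rik is lower in RAGE null control mice, and AI427809 and Gm10287 part at 4 months.

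4933431E20Rik was higher in WT control mice at both times. The gene (ENSMUSG00000086968, chromosome 3, 107888850 to 107896213, minus strand) overlaps Gstm5, a glutathione transferase, and Eps8l3. In control mice it was at 3.67, 5.05 and 2.82 CPM in WT and 1.64, 1.87, 1.87 and 1.70 CPM in RAGE null mice at 7 days. Libraries of 4 months held 3.74, 4.27, 3.44 and 3.30 CPM in WT and 2.20, 1.83, 1.89 and 1.88 CPM in RAGE null mice. The groups overlapped at neither time. WT over RAGE null gave 1.12 ± 0.25 (edgeR adjusted p = 0.0131) at 7 days, lost without WT control replicate 1 (0.113), and 0.93 ± 0.14 (edgeR adjusted p = 0.000793) at 4 months, which held with any library left out. In RAGE null mice at 4 months CS raised it to 2.83, 3.09, 2.80 and 3.15 CPM, by 0.61 ± 0.14 (edgeR adjusted p = 0.00794), or 0.58 without control replicate 1. Eps8l3 had 0.79, 1.23 and 1.11 and Gstm5 0.24, 0.56 and 0.33 in these 3 comparisons.

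Nlrc5 and 1700001L05Rik overlap no listed gene and differed in control mice. Nlrc5, a regulator of class I histocompatibility genes that later annotation lists as protein coding, lies on chromosome 8 from 94472763 to 94527272. At 4 months it was at 16.9, 19.1, 22.4 and 22.9 CPM in WT and 10.3, 12.9, 15.3 and 10.6 CPM in RAGE null mice, with no overlap. The log2 fold change of 0.72 ± 0.14 (edgeR adjusted p = 0.00381) held with any library left out. At 7 days it was at 15.1, 22.4 and 16.2 CPM in WT and 13.5, 11.6, 9.94 and 9.17 CPM in RAGE null mice, and 0.70 ± 0.16 (edgeR adjusted p = 0.0146) was lost without WT control replicate 1 (0.124). Cpne2, 5717 bases away, had -0.30 at 7 days and 1.53 ± 0.21 at 4 months. 1700001L05Rik (chromosome 15, 83357560 to 83367277, minus strand) was at 1.45, 0.798, 1.0 and 1.04 CPM in WT and 2.65, 4.53, 1.59 and 3.04 CPM in RAGE null control mice at 4 months, with no overlap. This difference of -1.49 ± 0.30 (edgeR adjusted p = 0.0048) held with any library left out, and Arfgap3, a Golgi transport gene 7312 bases away, had -1.28 ± 0.25. After CS it was at 2.22, 1.1, 1.34 and 1.51 CPM in RAGE null mice, which overlaps the controls. That fall of -0.93 ± 0.29 (edgeR adjusted p = 0.0344) was lost without control replicates 0, 1 or 3 or CS replicates 1, 2 or 3 (0.0528 to 0.11).

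Gm14023 and E230016M11Rik were higher in WT mice after 4 months of CS, and both run opposite a gene of the stress response. Gm14023 (chromosome 2, 129297370 to 129307826, plus strand) overlaps Il1a, which encodes interleukin-1 alpha. It was at 15.8, 13.9, 14 and 16.0 CPM in WT and 8.55, 9.53, 7.64 and 8.21 CPM in RAGE null CS-exposed mice. The groups did not overlap, and the log2 fold change of 0.82 ± 0.15 (edgeR adjusted p = 0.00345) held with any library left out. Il1a had 0.82 ± 0.15 (edgeR adjusted p = 0.00229), and Gm14023 had 8.77 to 21.5% of its counts. E230016M11Rik (ENSMUSG00000087231, chromosome 6, 67036599 to 67080654, plus strand) overlaps Gadd45a, a DNA damage gene. At 4 months it was at 3.89, 1.71, 3.83 and 3.97 CPM in control and 6.02, 6.84, 6.64 and 3.86 CPM in CS-exposed WT mice. RAGE null libraries held 2.20, 1.39, 2.33 and 1.27 CPM and 2.36, 3.14, 3.21 and 3.22 CPM. Control and CS-exposed WT mice overlapped, and WT and RAGE null mice overlapped in controls and not after CS.

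The log2 fold changes of E230016M11Rik were 0.84 ± 0.26 for CS in WT mice, 0.85 ± 0.29 for genotype in control and 0.97 ± 0.26 in CS-exposed mice (edgeR adjusted p = 0.0394, 0.0468 and 0.0273). They were lost in 7, 12 and 6 of 16 fits that left out a library, with an adjusted p of up to 0.111, 0.134 and 0.0825. Gadd45a had 0.81, 0.58 and 1.04 in the same order. Beside these results, the 5 listed neutrophil markers summed to 46.8 to 57.7 CPM in WT and 69.1 to 90.0 CPM in RAGE null CS-exposed mice, and the type 2 cell markers to 210 to 223 and 246 to 262 CPM. Their part in the result was not tested.

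In control mice at 7 days, 4930506C21Rik (chromosome 17, 8293366 to 8311080, minus strand), which overlaps the mitochondrial pyruvate carrier gene Mpc1, was at 1.96, 3.10 and 2.25 CPM in WT and 1.18, 0.761, 0.904 and 0.529 CPM in RAGE null mice. The groups did not overlap, and the log2 fold change of 1.53 ± 0.27 (edgeR adjusted p = 0.00305) held with any library left out. B230206H07Rik, which overlaps the actin regulator Eps8l2, was at 0.316, 0.975 and 0.513 CPM in WT and 2.68, 1.73, 3.37 and 1.35 CPM in RAGE null mice. WT over RAGE null gave -1.89 ± 0.42 (edgeR adjusted p = 0.0113), lost without WT control replicate 0 (0.0502), and Eps8l2 had -2.30 ± 0.41. Gm14321 was at 2.16, 1.73, 1.57 and 1.23 CPM in RAGE null controls, all under the WT controls. That difference of 1.23 ± 0.26 (edgeR adjusted p = 0.0082) was lost without WT control replicate 1 (0.0613).

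Other calls in control mice at 7 days had higher levels in WT. 9830144P21Rik, opposite the phosphate transporter gene Slc20a1, was at a mean of 11.06 against 6.463 CPM, 0.78 ± 0.20 (edgeR adjusted p = 0.0214), lost without WT control replicate 1 (0.137) or RAGE null control replicates 2 or 3 (0.0592 and 0.0606). 4933439C10Rik, opposite Zkscan17, was at 9.492 against 5.669 CPM, 0.74 ± 0.17 (edgeR adjusted p = 0.0133), lost without WT control replicate 0 (0.0668). It was also higher in WT CS-exposed mice at 4 months, at 5.184 against 3.445 CPM, 0.59 ± 0.12 (edgeR adjusted p = 0.0051), or 0.55 without WT CS replicate 0 or RAGE null CS replicate 1. AI480526, next to Setd1b, and 9230111E07Rik, which overlaps Gm14321 and had r of 0.90 with it at 7 days, at 0.71 ± 0.21 and 0.81 ± 0.25 (edgeR adjusted p = 0.044 and 0.0496), were lost in 10 and 12 of 15 fits that left out a library. Beside these results, the 9 type 1 alveolar cell markers summed to 113 to 156 CPM in WT and 202 to 229 CPM in RAGE null controls, and the 9 type 2 markers to 236 to 257 and 338 to 534 CPM. Their part in the result was not tested.

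In control mice at 4 months, A030009H04Rik, now Rnf227 and protein coding, was higher in WT by 0.66 ± 0.15 (edgeR adjusted p = 0.00822), or 0.56 without RAGE null control replicate 1. B430010I23Rik, opposite the tumor suppressor gene Mtus1, was at 0.916, 0.684, 1.0 and 0.489 CPM in WT and 1.62, 1.61, 1.29 and 2.10 CPM in RAGE null mice. WT over RAGE null gave -1.11 ± 0.31 (edgeR adjusted p = 0.0203), and Mtus1 had -1.09. It was lost without WT control replicates 1 or 3 or RAGE null control replicate 3 (0.0577, 0.0523 and 0.0696). After CS B430010I23Rik had -1.24 ± 0.31 (edgeR adjusted p = 0.0175), lost in 5 of 16 fits. E130215H24Rik, opposite the acetyl-CoA synthetase gene Acss1, was lower in WT CS-exposed mice by -0.67 ± 0.16 (edgeR adjusted p = 0.0147), lost without WT CS replicate 0 (0.052), and Acss1 had -0.63.

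The remaining calls with a mean of at least 1 CPM were lost in 4 to 11 of 16 fits that left out a library. They were 1700023L04Rik (-1.22), 2900056M20Rik, now Kantr (-0.73), 4930412C18Rik (-0.82), Gm15929, which overlaps Tmc4 (-0.98), Gm16153, which overlaps Rmnd1 (-0.98), and Gm2788, which overlaps E2f8 (0.94), in control mice, and Gm16153 again in CS-exposed mice (-1.14). Below 1 CPM lay 1 call at 7 days in each exposure and 2 in control and 3 in CS-exposed mice at 4 months. Beside these results, the 7 dendritic cell markers summed to 156 to 272 CPM in WT and 94.6 to 125 CPM in RAGE null controls at 4 months, and the 5 neutrophil markers to 42.5 to 59.3 and 80.6 to 136 CPM. Their part in the result was not tested.

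No lincRNA was called for a response to CS that differed between genotypes. The interaction of CS and genotype in edgeR called 0 of 201 lincRNAs at 7 days (0.0% of all genes) and 0 of 203 at 4 months (0.0383% of all genes). At an unadjusted p under 0.05 there were 35 lincRNAs (17.4%, with 15.9% of all genes) and 15 lincRNAs (7.39%, with 12% of all genes), and DESeq2 called 1 and 0. A lincRNA called in 1 genotype is therefore not shown to respond in that genotype alone.

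Between 4 months and 7 days a few effects differed. For CS this held for 1 lincRNA in WT mice (0.783% of all genes called) and 3 in RAGE null mice (1.86%). For genotype it held for 6 in control mice (1.72%) and 1 in CS-exposed mice (0.552%). Gm15396 fell after CS in WT mice at 4 months and not at 7 days, a difference of -0.85 ± 0.14 (edgeR adjusted p = 0.0135). That call was lost without WT CS replicate 0 of 4 months (0.0611). Spata5l1, which fell in RAGE null mice at 4 months, was at 9.56 to 10.8 CPM in control and 10.5 to 11.6 CPM in CS-exposed mice at 7 days. Its CS effect in RAGE null mice differed between the times by -0.72 ± 0.16 (edgeR adjusted p = 0.0146), which held with any library left out. The difference of Gm10287 between genotypes in CS-exposed mice was larger by -3.71 ± 0.65 (edgeR adjusted p = 0.00225), also with any library left out. The 2 times also differ in age and may differ in handling of libraries, which cannot be told apart. Levels themselves differed between the times, as for Snhg20, at 11.2 to 28.6 CPM over 15 libraries at 7 days and 4.00 to 9.92 CPM over 16 libraries at 4 months.

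Called lincRNAs and the genes they overlap moved in the same direction in most cases. Of 49 pairs of a call and an overlapping protein coding gene (25 lincRNAs and 27 genes), 43 had the same sign. The overlapping gene was itself called in 22 pairs, all with the same sign, and was not called in 27. Among lincRNAs that overlap no listed gene, 1, 0, 3 and 0 of 63 tested were called at 7 days. At 4 months 4, 5, 8 and 2 of 61 tested were called. The order is CS in WT, CS in RAGE null, genotype in control and genotype in CS-exposed mice. Of all genes tested, 2.26, 0.439, 4.78 and 2.2% were called at 7 days and 5.67, 7.27, 6.97 and 4.94% at 4 months. Since the libraries are not stated to keep strand, the counts do not show which gene of a pair was transcribed.

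**Figure D5:**
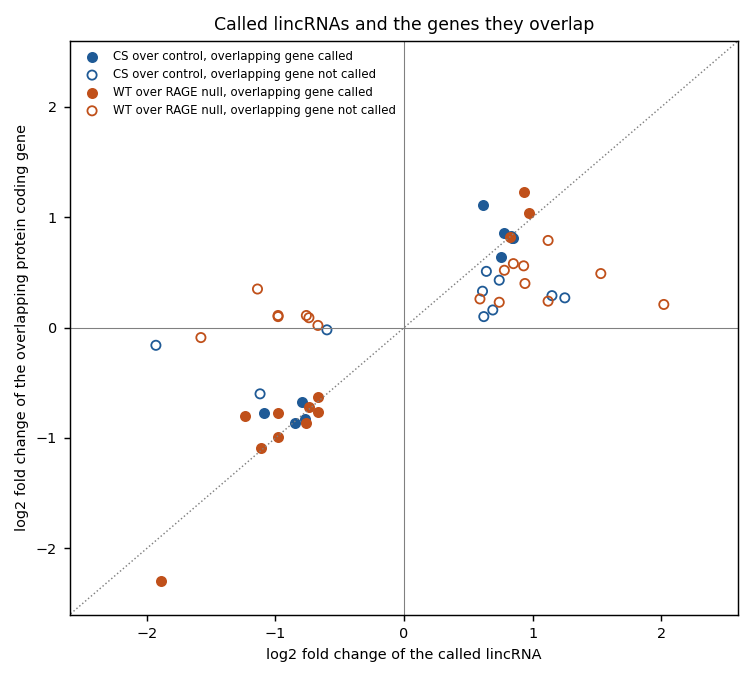
Log2 fold change of called lincRNAs (horizontal axis) against that of a protein coding gene they overlap (vertical axis), 49 points from 8 comparisons. Filled points are pairs whose overlapping gene was called as well (22, all with the same sign), open points those whose gene was not (27), and the dotted line marks equal change.

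The lincRNA nearest to Ager on chromosome 17 was Gm10501 (34976899 to 34981788, minus strand), 375965 bases away and opposite the heat shock gene Hspa1l. It was called in none of the 4 genotype comparisons, where its log2 fold changes were 0.54, 0.32, 0.22 and -0.45 (edgeR adjusted p = 0.216 to 0.667). Of 8 lincRNAs listed on chromosome 17, 4 lie within 5 Mb of Ager, and 4930506C21Rik, which is not among them, was the 1 called in a genotype comparison.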

How the data were processed

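Libraries were made from AM of 31 mice recovered by lavage (total RNA, oligo dT selection, single-end reads of 50 bases), and no source used here states whether they keep strand. The authors aligned reads to mm10 with Novoalign and counted them per gene with USeq, per the labels and methods. The deposited table holds raw counts per gene and library, FPKM values that the authors computed from them, gene length, and, for the authors' own comparisons by DESeq (DESeq2 in the submitters' processing notes), log2 ratios and a log10-scaled false discovery rate, which were not used. Every listed gene reaches at least 20 counts in some library, so low genes had been removed before deposit, and 1 line of the table is empty.

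Counts were fitted for each time point on its own with edgeR 4.0.16 (limma 3.58.1, R 4.3.3), with TMM factors, the default filter by group (minimum count 10, total 15) and 1 coefficient per group. The quasi-likelihood F test is 2-sided. SE was taken as the log2 fold change divided by the square root of F. Adjusted p-values are Benjamini-Hochberg over 13220 genes at 7 days and 13045 at 4 months, and differences between times come from 1 fit of 31 libraries and 13408 genes. CPM are counts scaled to the total count of a library. FPKM served only to compare levels between genes. Fit code was tested on simulated data. Each library is 1 mouse, but the labels do not say how mice were housed, so p-values measure the spread between these libraries. Depth limits the precision of low lincRNAs, since 1 CPM is about 12 counts in the shallowest library. Limits taken from a count of 0 (3 counts) cover counting error only.

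Coordinates are mm10, 1-based, and overlap was taken from the table and from GENCODE M21, which holds 208 of the 210. Named are the called lincRNAs of each comparison (up to 10 by fold change, mean log2 CPM of at least 0), the 10 highest by FPKM, those called in 3 or more comparisons, up to 4 of each list of known lincRNAs, and the lincRNA nearest to Ager. The members and lists were chosen with earlier results of these data known. Alternatives were the Wald test and size factors of DESeq2 1.42.0, other filters, the replicate number as a block, only lincRNAs that overlap no gene, and each library left out. Tables and figures used Python 3.11.15, pandas 2.3.3, numpy 2.4.6 and matplotlib 3.10.9.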

Additional observations from a re-analysis of the deposited data

Results flagged for a closer look

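In groups of 4, the highest or lowest library stood apart from the other 3 by Dixon's criterion in 13 of 161 groups tested, where chance flags about 1 in 20. Among the lincRNAs described, 4933431E20Rik was at 3.70 CPM in RAGE null CS replicate 1 at 7 days (the others 1.87 to 2.18) and at 2.20 CPM in RAGE null control replicate 0 at 4 months (1.83 to 1.89). E230016M11Rik was at 1.71 CPM in WT control replicate 1 (3.83 to 3.97) and at 2.36 CPM in RAGE null CS replicate 0 (3.14 to 3.22), both at 4 months. AI427809 was at 0.086 CPM in WT CS replicate 0 at 7 days (the others at 0) and at 0.367 CPM in RAGE null control replicate 0 at 4 months (0.055 to 0.099). B230206H07Rik was at 1.03 CPM in WT CS replicate 0 at 7 days (0.347 to 0.458) and at 0.0992 CPM in RAGE null control replicate 2 at 4 months (0.588 to 0.664). At 7 days 1700001L05Rik was at 1.76 CPM in RAGE null control replicate 3 (0.844 to 0.982), Nlrc5 at 10.2 CPM in WT CS replicate 2 (13.3 to 13.7), and 0610005C13Rik at 3.53 CPM in RAGE null CS replicate 2 (3.14 to 3.18). The total count of RAGE null CS replicate 0 at 7 days was 19.975 M (the others 12.5 to 13.1 M). The lincRNA share of counts in RAGE null control replicate 0 at 7 days was 0.262% (0.222 to 0.226%).

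Effects that differed between 4 months and 7 days, as log2 fold change at 4 months minus that at 7 days, were tested in the edgeR fit of all libraries. For CS in WT mice this was Gm15396 (-0.85). For CS in RAGE null mice it was 2310058D17Rik (-2.80), Gm11974 (-0.85) and Spata5l1 (-0.72). For genotype in control mice it was Gm10287 (-2.59), Gm14321 (-1.44), 4930506C21Rik (-1.42), Firre, listed as 6720401G13Rik (-1.20), AI480526 (-1.05) and Gm11131 (-0.63). For genotype in CS-exposed mice it was Gm10287 (-3.71). Of those named, 2310058D17Rik overlaps Trim17 and Gm11131 overlaps H2-Q4. Gm14321, 4930506C21Rik, Firre and AI480526 were higher in WT controls at 7 days by 1.23, 1.53, 0.74 and 0.71, the value of Firre with an edgeR adjusted p of 0.0648. Leaving out 1 library took the adjusted p of 9 of the 11 to 0.05 or above for at least 1 library, the exceptions being Spata5l1 and Gm10287 in CS-exposed mice.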

How the results depend on the processing

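Counts of called lincRNAs are given for CS in WT, CS in RAGE null, genotype in control and genotype in CS-exposed mice, at 7 days and then at 4 months. They were 5, 2, 11 and 2, then 12, 13, 15 and 10. DESeq2's Wald test gave 8, 3, 12, 1, 12, 11, 17 and 13, and DESeq2 size factors in edgeR 5, 2, 10, 2, 12, 13, 15 and 10. At least 20 counts in every library gave 3, 2, 6, 1, 7, 5, 5 and 5, from fewer lincRNAs tested, and no filter gave 6, 2, 10, 1, 12, 13, 16 and 10. Only lincRNAs that overlap no listed gene gave 1, 0, 3, 0, 4, 5, 8 and 2, by construction from fewer members. Interactions stayed at 0 except for 1 in DESeq2 at 7 days. Time differences were 1, 3, 6 and 1, and 4, 4, 9 and 1 in DESeq2. With each library left out the counts ran from 0 to 10, 0 to 3, 4 to 23, 1 to 3, 5 to 12, 6 to 15, 8 to 23 and 7 to 14, those of the interactions from 0 to 4 and 0 to 0, and those of the time differences from 0 to 8, 1 to 6, 0 to 17 and 1 to 1. No direction of a named lincRNA reversed. The cause of other changes was not tested.

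Same-numbered libraries of different groups had a mean residual correlation of 0.00572 at 7 days and 0.0290 at 4 months, against -0.00207 and -0.0101 for other numbers, so the numbers were not taken as pairs. With the replicate block 3, 2, 8, 1, 12, 10, 13 and 13 lincRNAs were called.

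Of the lincRNAs, 74 of 210 are under 1 FPKM, beside 1791 of 12112 protein coding genes, and 17 of the 70 calls are of lincRNAs with a mean below 1 CPM.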
